A study of Mus musculus with 12 samples.

Results

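The 40 genes described here encode proteins that repair DNA breaks or relay the damage checkpoint. They were taken from a fixed list of symbols and matched to Ensembl identifiers, and all 40 of 40 were found among the 40551 genes counted. All 40 also had enough reads to be tested, of 15070 tested genes. By role they fell into homologous recombination (11 genes), crosslink repair of the Fanconi anemia pathway (5), end sensing and resection (6), end joining (6), single-strand break repair (4), checkpoint kinases (4), chromatin around the break (3) and mismatch recognition (1).

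RNA-seq of total RNA was done on 12 mouse livers, with 3 livers for each of 4 genotypes. Mcl1Δhep mice carry floxed Mcl1 and a Cre transgene driven by the albumin promoter, so that this antiapoptotic gene is lost from hepatocytes, whereas the other liver cells keep it. Sting1-/- mice lack the innate immune adaptor STING in every cell, Mcl1Δhep Sting1-/- mice combine both deletions, and WT mice carry neither. The WT and Mcl1Δhep livers came from mice aged 2 months, both sexes were used, and an age for the RNA of the Sting1-/- and Mcl1Δhep Sting1-/- livers is not given in the sources used here.

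DNA breaks reach the cell by replication, by oxidation and by outside agents, and are mended along a few routes. Homologous recombination copies the intact sister chromatid, so it works in S and G2 phase, and the Fanconi anemia proteins open crosslinks that block the replication fork. Nonhomologous end joining ligates ends directly and is available throughout the cell cycle, resting hepatocytes included. The kinases ATM and ATR sense breaks and stalled forks and pass the signal to CHEK2 and CHEK1, and phosphorylated H2AX marks the chromatin around a break. Hepatocytes of a healthy adult liver are mostly quiescent and divide when hepatocytes are lost, and many genes for replication-coupled repair are transcribed with the cell cycle.

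Each library held 28826367 to 45266387 counts on genes. Mcl1 itself was at 90.2, 102 and 104 CPM (counts scaled to library size with TMM factors) in WT livers and at 27.9, 34.0 and 25.0 in Mcl1Δhep livers, and at 78.3, 90.1 and 77.0 in Sting1-/- livers and 18.1, 22.9 and 26.0 in Mcl1Δhep Sting1-/- livers. Sting1 reads were present in all genotypes, at 2.11 to 2.53 CPM in WT and 1.16 to 2.70 in Sting1-/- livers, so the counts alone do not show that deletion and the genotype is that of the labels. The 8 hepatocyte markers summed to between 112000 and 170000 CPM over the 12 livers. Summed macrophage markers were 467 to 759 CPM in WT, 831 to 995 in Mcl1Δhep, 553 to 750 in Sting1-/- and 878 to 925 in Mcl1Δhep Sting1-/- livers. Summed lymphocyte markers ran from 20.0 to 24.7, 35.7 to 47.9, 18.8 to 32.7 and 33.7 to 45.5 CPM in the same order, with Cd3e under 1 CPM in every liver. This sum does not stand for the whole list. Averaged over both Sting1 backgrounds, 3 of its 7 tested genes were higher with Mcl1 deletion, with a median log2 difference of -0.02. By edgeR, 2 of them had an adjusted p under 0.05, beside 9.9% of all tested genes. Stellate cell and fibroblast markers ran from 402 to 667, 898 to 1100, 439 to 504 and 670 to 990 CPM. The part that these cells had in the results below was not tested, and in whole liver a change in the number of cells cannot be told apart from a change in RNA per cell.

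The first comparison asks which repair genes differed when hepatocytes lacked Mcl1. In Mcl1Δhep against WT livers, edgeR's quasi-likelihood test called 12 of the 40 genes higher, beside 10.8% of all tested genes, and 2 lower, beside 9.43% (Benjamini-Hochberg adjusted p under 0.05 over all tested genes). The higher ones were Rad51ap1, Rad54l, Rad54b, Palb2 and Bard1 of homologous recombination, Fanca, Fancd2 and Fanci of crosslink repair, the resection nuclease Exo1, the polymerase Polq, the kinase Chek1 and the histone variant H2ax. Parp1 and Atm were the lower ones. The median log2 fold change of the 40 was 0.24, beside -0.01 over all tested genes. Averaged over both Sting1 backgrounds, 6 livers with Mcl1 deletion against 6 without, 14 of the 40 were called higher, beside 9.9% of all tested genes, and 0 lower, beside 6.83%. This added Brca1 and Chek2 to the 12. Rad51ap1 and Polq, which are in both counts, passed the filter on low counts through the livers with Mcl1 deletion. They reached its level in 0 and 2 of the 6 livers with intact Mcl1, so they were tested because of their high side. With no adjustment, 18 of the 40 were higher and 2 lower at p under 0.05 in the averaged difference, beside 16.8 and 15.6% of all tested genes, and DESeq2 called 17 higher, beside 12.2%, and 0 lower. The calls of Brca1 and Chek2 were each kept in 5 of the 12 fits that left out 1 library, and those of the other 12 genes in all 12 fits. In Mcl1Δhep against WT, the calls of Bard1, Fancd2 and Palb2 were each kept in 9 of these 12 fits. That of Polq was kept in 4, that of Atm in 4 and that of Parp1 in 1.

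**Figure D1:**
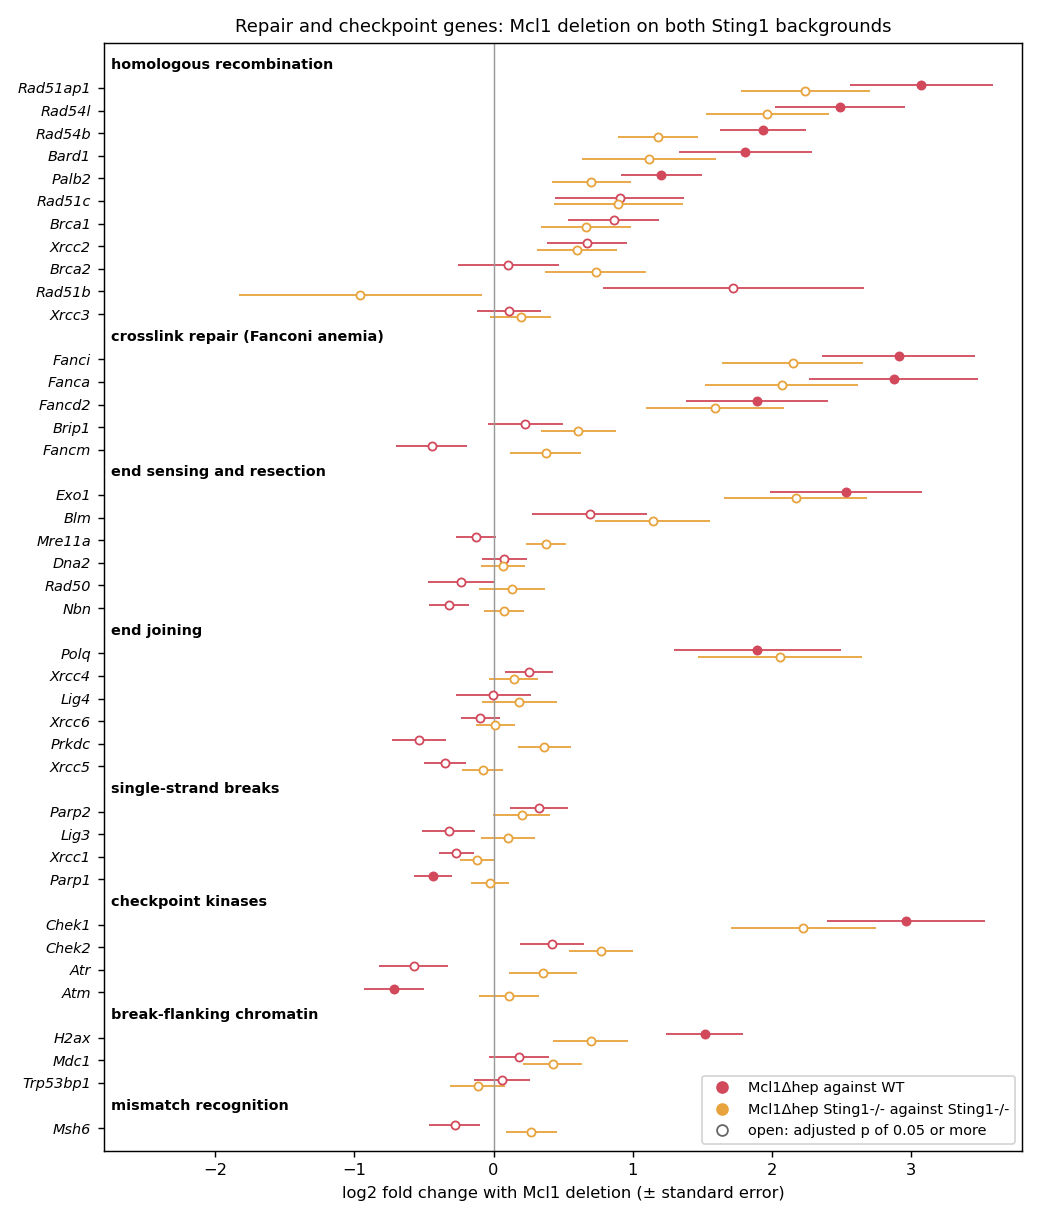
Log2 fold change with Mcl1 deletion (x axis, ± standard error) for each of the 40 genes (y axis, grouped by role), in Mcl1Δhep against WT livers and in Mcl1Δhep Sting1-/- against Sting1-/- livers, 3 livers per genotype. Filled points have an adjusted p under 0.05, and the 12 filled points on the right lie between 1.21 and 3.07, whereas no point of the Sting1-/- background is filled.

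Among the recombination genes, 6 of 11 were called higher in the averaged difference and 0 lower, with a median log2 difference of 0.90. Over all tested genes 9.9% were called higher and 6.83% lower, and these shares also stand beside the counts of the role groups below. Rad51ap1 (ENSMUSG00000030346, chromosome 6, 126899446 to 126916587, GRCm39), whose protein binds and stimulates the strand-exchange recombinase, had 0.13, 0.06 and 0.17 CPM in WT livers, 0.95, 1.19 and 0.92 in Mcl1Δhep, 0.23, 0.19 and 0.27 in Sting1-/- and 0.94, 1.80 and 0.52 in Mcl1Δhep Sting1-/- livers. All 6 livers with Mcl1 deletion were above the 6 others. Its log2 fold change in Mcl1Δhep against WT was 3.07 (standard error 0.51, adjusted p = 0.00344 by the quasi-likelihood test), an 8.42-fold rise from a level near the limit of detection.

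Rad54b and Rad54l encode related motor proteins that remodel DNA during strand exchange. Rad54b (ENSMUSG00000078773, chromosome 4, 11558862 to 11615814) stood at 0.47, 0.56 and 0.50 CPM in WT, 2.36, 1.90 and 1.61 in Mcl1Δhep, 0.87, 1.17 and 1.35 in Sting1-/- and 1.94, 3.58 and 2.19 in Mcl1Δhep Sting1-/- livers. The groups with and without Mcl1 deletion did not overlap, and the Sting1-/- livers also lay above the WT livers. The rise in Mcl1Δhep was 1.93 on the log2 scale (standard error 0.31, adjusted p = 0.00285). Rad54l (ENSMUSG00000028702, chromosome 4, 115948561 to 115980894) had 0.24, 0.15 and 0.30 CPM in WT, 1.61, 1.38 and 0.85 in Mcl1Δhep, 0.23, 0.48 and 0.34 in Sting1-/- and 1.80, 1.66 and 0.68 in Mcl1Δhep Sting1-/- livers. Again all 6 Mcl1-deleted livers were higher, by 2.49 in Mcl1Δhep against WT (standard error 0.47, adjusted p = 0.00577).

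Brca1 (ENSMUSG00000017146, chromosome 11, 101379577 to 101442781), the ubiquitin ligase that steers breaks into recombination, had 5.14, 2.76 and 3.17 CPM in WT, 6.58, 8.29 and 5.31 in Mcl1Δhep, 4.86, 3.26 and 3.79 in Sting1-/- and 4.48, 9.43 and 4.90 in Mcl1Δhep Sting1-/- livers. Mcl1Δhep and WT livers did not overlap, but the other pair of genotypes did. The averaged log2 difference was 0.76 (standard error 0.23, adjusted p = 0.0409), and the adjusted p in Mcl1Δhep against WT was 0.0791. Its partner Bard1 had a log2 fold change of 1.81 (standard error 0.48) and Palb2, which links BRCA1 to BRCA2, one of 1.21 (standard error 0.29), both called in Mcl1Δhep. Brca2 did not pass, with 0.11 in Mcl1Δhep (standard error 0.37) and 0.73 on the Sting1-/- background (standard error 0.36). Of the paralogs that assist strand exchange, Xrcc2 had an averaged difference of 0.63 (adjusted p = 0.0537), Rad51c one of 0.90 (adjusted p = 0.0804) and Xrcc3 one of 0.15 (adjusted p = 0.547). Rad51b, another paralog, was the most variable of the 40, from 0.33 CPM in WT liver 3 to 17.4 in Sting1-/- liver 3, and its averaged difference was 0.38 with a standard error of 0.63.

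In the Fanconi anemia group, 3 of 5 genes were called higher. FANCI and FANCD2 form the clamp that is ubiquitinated at a crosslink, and FANCA belongs to the core complex that does so. Fanci (ENSMUSG00000039187, chromosome 7, 79041677 to 79100027) had 0.18, 0.21 and 0.36 CPM in WT, 2.81, 1.77 and 1.04 in Mcl1Δhep, 0.61, 0.40 and 0.53 in Sting1-/- and 2.71, 3.27 and 0.88 in Mcl1Δhep Sting1-/- livers. Fanca (ENSMUSG00000032815, chromosome 8, 123993038 to 124045331) had 0.05, 0.42 and 0.23 CPM in WT, 2.11, 1.62 and 1.36 in Mcl1Δhep, 0.84, 0.34 and 0.41 in Sting1-/- and 3.21, 2.44 and 1.07 in Mcl1Δhep Sting1-/- livers. Fancd2 (ENSMUSG00000034023, chromosome 6, 113508412 to 113573982) had 0.42, 0.80 and 0.23 CPM in WT, 3.12, 1.13 and 1.14 in Mcl1Δhep, 0.79, 0.66 and 0.58 in Sting1-/- and 2.34, 2.53 and 1.23 in Mcl1Δhep Sting1-/- livers. For all 3 genes, every liver with Mcl1 deletion exceeded every liver without it. The log2 fold changes in Mcl1Δhep against WT were 2.91 for Fanci (standard error 0.55, adjusted p = 0.00578), 2.87 for Fanca (standard error 0.60, adjusted p = 0.00917) and 1.89 for Fancd2 (standard error 0.51, adjusted p = 0.0252).

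The rest of that group did not pass. Fancm (ENSMUSG00000055884, chromosome 12, 65122377 to 65178832), a translocase that recognises stalled forks, had 5.04, 6.05 and 5.81 CPM in WT, 6.23, 2.78 and 3.32 in Mcl1Δhep, 6.02, 5.52 and 4.92 in Sting1-/- and 7.62, 6.38 and 7.36 in Mcl1Δhep Sting1-/- livers. Mcl1Δhep livers 2 and 3 were the lowest of the 12 and liver 1 was not, and the averaged difference was -0.04 (standard error 0.18). Brip1, the helicase that binds BRCA1, had an averaged difference of 0.42 (adjusted p = 0.148).

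For end sensing and resection, 1 of 6 genes was called. Exo1 (ENSMUSG00000039748, chromosome 1, 175708143 to 175741055), the exonuclease of long-range resection, had 0.29, 0.15 and 0.17 CPM in WT, 1.28, 1.16 and 1.14 in Mcl1Δhep, 0.44, 0.11 and 0.39 in Sting1-/- and 1.14, 2.32 and 0.74 in Mcl1Δhep Sting1-/- livers. The groups with and without Mcl1 deletion were separate, and the Mcl1Δhep livers were 2.53 higher on the log2 scale (standard error 0.55, adjusted p = 0.0101). Blm, a helicase that acts with it, had an averaged difference of 0.92 and an adjusted p of 0.0509. Dna2, the other resection nuclease, was at 0.07 (adjusted p = 0.7). The 3 subunits of the complex that first binds a broken end, Mre11a, Rad50 and Nbn, had averaged differences of 0.12, -0.05 and -0.12, with adjusted p-values of 0.424, 0.855 and 0.44.

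End joining gave a like picture, with 1 of 6 genes called. Polq (ENSMUSG00000034206, chromosome 16, 36832108 to 36915779), the polymerase of the mutagenic microhomology-mediated route, had 0.24, 0.21 and 0.43 CPM in WT, 1.78, 1.01 and 0.41 in Mcl1Δhep, 0.52, 0.19 and 0.24 in Sting1-/- and 2.04, 1.17 and 0.77 in Mcl1Δhep Sting1-/- livers. Mcl1Δhep liver 3 fell within the WT range and the other 5 Mcl1-deleted livers lay above it. Its log2 fold change was 1.90 in Mcl1Δhep against WT (standard error 0.60, adjusted p = 0.0436) and 2.06 on the Sting1-/- background (standard error 0.59, adjusted p = 0.157). The first of these values ran from 1.29 to 2.27 on leaving out 1 library, and its call ended without Mcl1Δhep livers 1 or 2 or any 1 of 6 other libraries. The classical end-joining genes did not pass in either direction. Xrcc6 (ENSMUSG00000022471, chromosome 15, 81871931 to 81924291), which encodes the Ku70 subunit that caps a broken end, had 18.8, 18.4 and 19.5 CPM in WT, 18.4, 15.4 and 19.4 in Mcl1Δhep, 19.7, 18.7 and 17.7 in Sting1-/- and 17.3, 22.3 and 17.0 in Mcl1Δhep Sting1-/- livers. All genotypes overlapped, and the averaged difference was -0.04 (standard error 0.10).

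Prkdc (ENSMUSG00000022672, chromosome 16, 15455698 to 15660099), the catalytic subunit of the DNA-dependent kinase that Ku recruits, had 10.7, 16.6 and 11.4 CPM in WT, 10.8, 8.63 and 7.24 in Mcl1Δhep, 11.6, 11.6 and 10.3 in Sting1-/- and 13.6, 16.4 and 13.2 in Mcl1Δhep Sting1-/- livers. Mcl1Δhep livers 2 and 3 were the lowest, and WT liver 2 stood above the other livers of its genotype. The log2 fold change was -0.53 in Mcl1Δhep (standard error 0.19, adjusted p = 0.0697) and 0.37 on the Sting1-/- background (standard error 0.19, adjusted p = 0.526). Xrcc5, the Ku80 subunit, had an averaged difference of -0.21 (adjusted p = 0.186). The ligase Lig4 and its partner Xrcc4 had 0.09 and 0.20 (adjusted p = 0.772 and 0.29).

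No single-strand break repair gene was called higher. Parp1, the main sensor of nicks, was called lower in Mcl1Δhep against WT, at -0.43 on the log2 scale (standard error 0.14, adjusted p = 0.0412), and had -0.02 on the Sting1-/- background (standard error 0.14). Its CPM were 59.5, 60.4 and 66.1 in WT and 54.9, 42.2 and 40.5 in Mcl1Δhep livers, which did not overlap. Parp2, the scaffold Xrcc1 and the ligase Lig3 had averaged differences of 0.26, -0.19 and -0.11, with adjusted p-values of 0.24, 0.15 and 0.619. The span of Parp2 overlaps the RNase P RNA gene Rpph1, on the opposite strand and at 4420 CPM on average.

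The 4 checkpoint kinases did not move together. Chek1 (ENSMUSG00000032113, chromosome 9, 36614487 to 36638361), which holds cells back when replication forks stall, had 0.34, 0.24 and 0.17 CPM in WT, 1.99, 2.20 and 1.77 in Mcl1Δhep, 0.67, 0.48 and 0.41 in Sting1-/- and 1.64, 4.70 and 0.90 in Mcl1Δhep Sting1-/- livers. The 6 livers with Mcl1 deletion were all higher, and Mcl1Δhep Sting1-/- liver 2 was the highest of the 12. The log2 fold change was 2.96 in Mcl1Δhep against WT (standard error 0.57, adjusted p = 0.00616), a 7.80-fold rise. Chek2 had an averaged difference of 0.60 (standard error 0.16, adjusted p = 0.0278).

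Atm (ENSMUSG00000034218, chromosome 9, 53348097 to 53448236), the kinase that responds to double-strand breaks, had 19.8, 24.7 and 24.4 CPM in WT, 19.8, 11.4 and 10.6 in Mcl1Δhep, 25.8, 23.7 and 21.8 in Sting1-/- and 22.7, 25.3 and 29.0 in Mcl1Δhep Sting1-/- livers. Mcl1Δhep livers 2 and 3 were far below the rest, and Mcl1Δhep liver 1 was level with WT liver 1. The log2 fold change of -0.72 (standard error 0.22) had an adjusted p of 0.0368, and on the Sting1-/- background the value was 0.11 (standard error 0.21, adjusted p = 0.908). Atr, the kinase of stalled forks, was also lowest in Mcl1Δhep livers 2 and 3, at 12.2 and 11.9 CPM beside 23.8 in liver 1, and had -0.57 (standard error 0.25, adjusted p = 0.116).

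Mcl1Δhep livers 2 and 3 differed from the other libraries in a further measure. Small structured RNAs took 2.37 and 1.36% of their counts, beside 0.283% in Mcl1Δhep liver 1, 0.172 to 0.369% in WT, 0.506 to 0.897% in Sting1-/- and 0.431 to 0.532% in Mcl1Δhep Sting1-/- livers. Mcl1Δhep liver 3 also held skeletal muscle transcripts at 1450 CPM. Without Mcl1Δhep liver 1, 9 of the 40 genes were called lower (Parp1, Nbn, Atm, Atr, Rad50, Lig3, Fancm, Prkdc and Msh6) and 10 higher, beside 17.8 and 16.3% of the genes then tested. With the small RNA share as a covariate, 0 were called lower and 6 higher (Rad54b, Rad54l, Fancd2, Rad51ap1, Fanci and H2ax), beside 0.458 and 2.24% of all tested genes. Sex differed as well, with Y-linked transcripts in WT livers 2 and 3 and Mcl1Δhep Sting1-/- liver 1 alone, and with them as a covariate 8 were called higher and 0 lower, beside 5.93 and 4.24%. The part of these factors in the lower calls was not tested beyond these fits.

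H2ax (ENSMUSG00000049932, chromosome 9, 44245991 to 44247374) encodes the histone variant whose phosphorylation at breaks is used as a stain for DNA damage. Its mRNA stood at 6.83, 7.38 and 5.15 CPM in WT, 20.5, 19.6 and 15.4 in Mcl1Δhep, 9.63, 4.56 and 9.41 in Sting1-/- and 15.1, 9.75 and 13.5 in Mcl1Δhep Sting1-/- livers. All Mcl1-deleted livers exceeded all others, and the 3 Mcl1Δhep livers lay above the 3 Mcl1Δhep Sting1-/- livers. The rise was 2.86-fold in Mcl1Δhep (log2 1.52, standard error 0.28, adjusted p = 0.00492) and the value on the Sting1-/- background was 1.62-fold (log2 0.70, standard error 0.27, adjusted p = 0.334). The RNA level says nothing of the phosphorylated protein. Mdc1, the scaffold that reads that phosphorylation, had an averaged difference of 0.30 (adjusted p = 0.182).

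Trp53bp1 and Msh6 were among the 4 genes with the smallest averaged difference, with Fancm and Xrcc6. Trp53bp1 (ENSMUSG00000043909, chromosome 2, 121023762 to 121120840), which shields ends from resection, had 10.2, 7.21 and 7.60 CPM in WT, 11.7, 7.46 and 6.93 in Mcl1Δhep, 10.5, 11.1 and 9.94 in Sting1-/- and 9.92, 9.31 and 9.91 in Mcl1Δhep Sting1-/- livers. Its averaged difference was -0.03 (standard error 0.14). Msh6 (ENSMUSG00000005370, chromosome 17, 88282418 to 88298320), a mismatch sensor that acts behind the replication fork, had 18.3, 21.1 and 18.5 CPM in WT, 20.4, 14.7 and 12.6 in Mcl1Δhep, 19.0, 17.4 and 18.7 in Sting1-/- and 22.8, 25.9 and 17.8 in Mcl1Δhep Sting1-/- livers. Its averaged difference was -0.003 (standard error 0.13), with values of -0.28 in Mcl1Δhep and 0.27 on the Sting1-/- background.

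**Figure D2:**
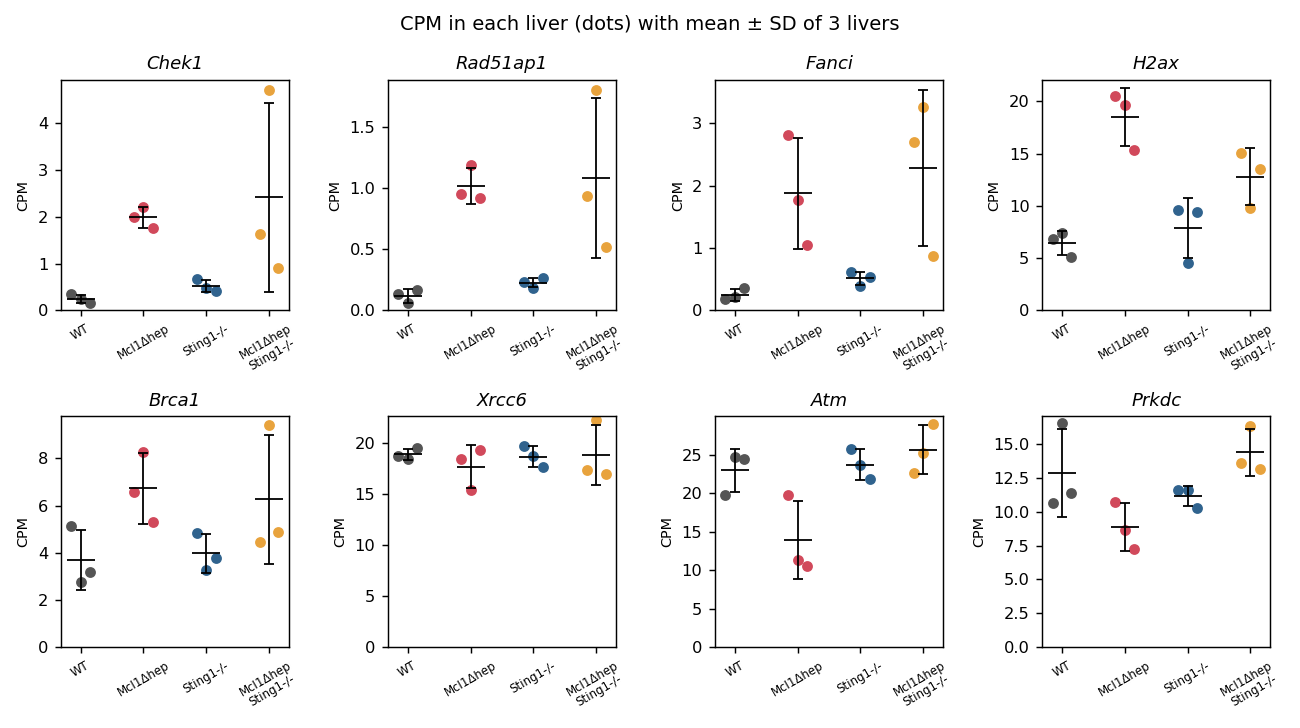
CPM (y axis, from 0) of 8 named genes in each of the 12 livers (dots), by genotype, with the mean and SD of 3 livers. Chek1, Rad51ap1, Fanci and H2ax are separate between livers with and without Mcl1 deletion, Xrcc6 lies between 15.4 and 22.3 in all genotypes, and Atm is lowest in Mcl1Δhep livers 2 and 3.

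Over all 40 genes, the 6 Mcl1-deleted livers were all above the 6 others for 10 genes, which held for 4.27% of all tested genes. These were Rad51ap1, Rad54b, Rad54l, Fanci, Chek1, Exo1, Fanca, H2ax, Fancd2 and Palb2. Of them, Rad51ap1 is no support, since it passed the count filter through the livers with Mcl1 deletion alone. In Mcl1Δhep against WT alone, 15 of the 40 had every Mcl1Δhep liver above every WT liver, beside 16.2% of all tested genes, and 3 had every one below (Parp1, Xrcc1 and Xrcc5), beside 17.1%.

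**Figure D3:**
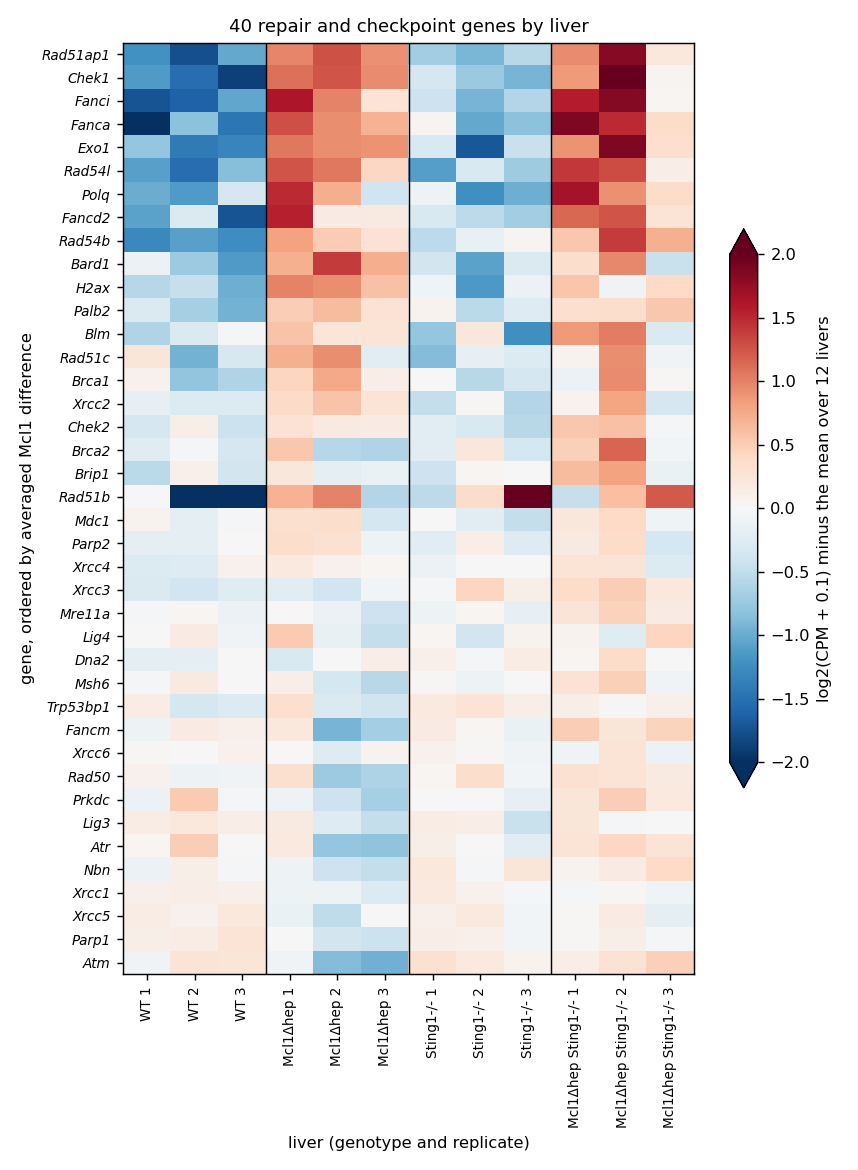
Log2(CPM + 0.1) minus the mean over the 12 livers (colour, red above and blue below the mean) for the 40 genes (y axis, ordered by the averaged Mcl1 difference) in each liver (x axis). The genes at the top are higher in all 6 livers with Mcl1 deletion, and many of those at the bottom are lowest in Mcl1Δhep livers 2 and 3.

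Levels in WT livers are given as a description, since these livers also set the fold changes. On the TPM scale, which accounts for transcript length, 11 of the 14 genes called in the averaged difference had mean levels of 0.0728 to 0.214 TPM in WT livers, and Brca1, Chek2 and H2ax had 1.53, 1.19 and 16.8, so that not all called genes were of low level. The 26 genes not called began at 0.34 TPM (Rad51c) and reached 36.2 (Xrcc5). The 11 low genes had between 2 and 193 reads in a library, so their fold changes carry large errors, and 2 of them (Polq and Rad51ap1) reached the count filter of 0.267 CPM in fewer than 3 of the 6 livers with intact Mcl1, and so passed through the livers with Mcl1 deletion.

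**Figure D4:**
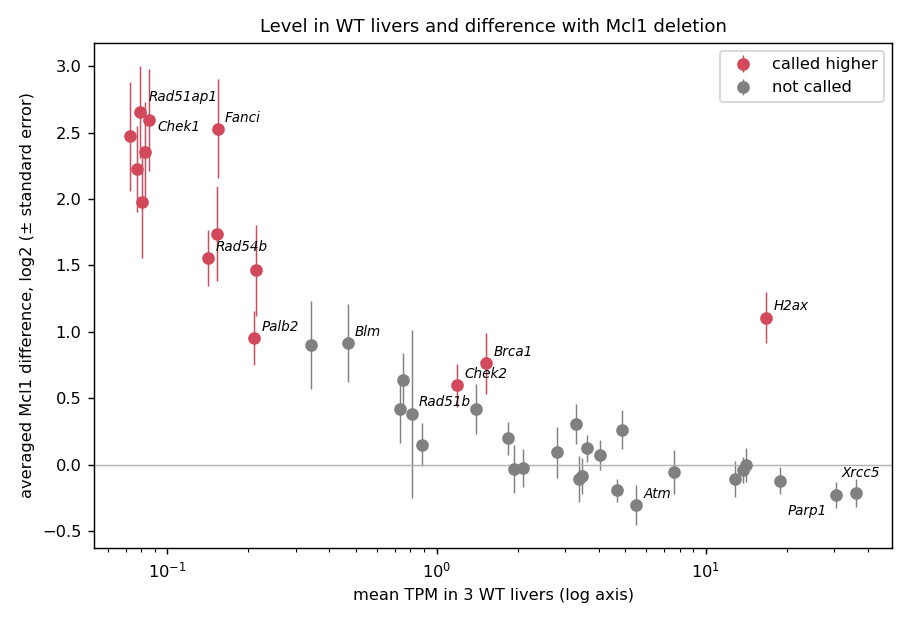
Averaged log2 difference with Mcl1 deletion (y axis, ± standard error, 6 livers against 6) against the mean TPM in 3 WT livers (x axis, log scale) for the 40 genes. The called genes lie at the left, below 0.22 TPM, except for Brca1, Chek2 and H2ax, and the genes of highest level lie near or below 0.

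The Mcl1Δhep Sting1-/- livers held the same deletion in other libraries, with the Sting1-/- livers as their control. Both genotypes entered Mcl1Δhep against WT only through the shared scaling, filter and estimate of the spread. With only the 6 libraries of both genotypes, 9 of the 40 were called higher in Mcl1Δhep against WT and 0 lower, beside 5.83 and 2.32% of the genes then tested. In Mcl1Δhep Sting1-/- against Sting1-/- livers, edgeR called 0 of the 40 genes higher or lower, beside 0.677 and 0.126% of all tested genes. The lowest adjusted p was 0.0508, for Rad51ap1, which had passed the count filter through the livers with Mcl1 deletion. Unadjusted, 16 of the 40 were higher at p under 0.05, beside 7.27% of all tested genes, and 0 lower, and DESeq2 called 9 higher, beside 2.57%. Of the 12 genes called higher in Mcl1Δhep against WT, 12 had a positive log2 fold change here, from 0.70 to 2.24 with a median of 2.01, and 12 had an unadjusted p under 0.05. The 26 genes called in neither direction in Mcl1Δhep had a median of 0.24 here, with 22 positive, beside a median of -0.01 over all tested genes. Without Mcl1Δhep Sting1-/- liver 3, 5 genes were called higher (Exo1, Rad54l, Rad51ap1, Fanci and Chek1), beside 1.52% of the genes then tested.

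Whether the loss of Sting1 changed these genes was compared in Mcl1Δhep Sting1-/- against Mcl1Δhep livers. edgeR called 0 of the 40, beside 0% of all tested genes, and at an unadjusted p under 0.05 there were 8 of the 40, all higher, beside 20.6% of all tested genes. They were Atm, Nbn, Prkdc, Mre11a, Fancm, Atr, Xrcc3 and Msh6, and DESeq2 called 3 of them, Atm, Nbn and Prkdc, beside 2.24% of all tested genes. The difference for Atm was 0.88 on the log2 scale (standard error 0.22, adjusted p = 0.132 by edgeR and 0.0128 by DESeq2). All Mcl1Δhep Sting1-/- livers were above all Mcl1Δhep livers for 8 genes, beside 8.97% of all tested genes. Without Mcl1Δhep liver 1, edgeR called 10 higher, beside 11.2% of the genes then tested (Parp1, Nbn, Brca2, Mre11a, Atm, Atr, Rad50, Fancm, Prkdc and Msh6). None of the 14 genes that rose with Mcl1 deletion was among these. For Chek1 the difference was 0.29 (standard error 0.48), for Rad51ap1 0.10 (standard error 0.41) and for H2ax -0.54 (standard error 0.27, adjusted p = 0.278).

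In Sting1-/- against WT livers, edgeR called 0 of the 40 (0% of all tested genes), with 3 at an unadjusted p under 0.05, beside 5.45% of all tested genes, and DESeq2 called 0. These were Rad54b, at 1.14 on the log2 scale (standard error 0.31, adjusted p = 0.643), Rad51b and Xrcc3. The test of whether the Mcl1 difference itself depended on Sting1 called 0 of the 40 by edgeR (0% of all tested genes) and 0 by DESeq2. Unadjusted, it passed for 5, beside 14.4%, which were Prkdc, Atm, Atr, Mre11a and Fancm. The largest of these values was 0.93 for Atr (standard error 0.35), and that of Prkdc was 0.90 (standard error 0.27, adjusted p = 0.274). Without Mcl1Δhep liver 1, 7 of the 40 were called with a positive value (Parp1, Atm, Atr, Rad50, Fancm, Prkdc and Msh6), beside 6.03% of the genes then tested.

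To ask which repair genes go with proliferation, a proliferation index was computed for each liver as the mean log2 CPM of 28 mitosis genes, none of them among the 40. It was -0.39, -0.53 and -0.60 in WT livers, 3.37, 2.76 and 1.95 in Mcl1Δhep, 0.55, 0.05 and -0.16 in Sting1-/- and 3.59, 2.68 and 1.60 in Mcl1Δhep Sting1-/- livers. The index thus separated the genotypes with and without Mcl1 deletion completely, and within genotypes it varied most among the Mcl1-deleted livers. Between these genotypes, proliferation and Mcl1 deletion cannot be told apart, and the slopes below come from the livers within genotypes. In every genotype the index also fell in the order of the replicate numbers. Proliferation and that order cannot be told apart in these slopes or in the correlations below.

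In the model with genotype and index, 36 of the 40 slopes were positive, with a median of 0.23 log2 units per unit of the index, beside 0.02 over all tested genes. On leaving out 1 library, this median ran from 0.125 (without Mcl1Δhep Sting1-/- liver 3) to 0.326 (without Mcl1Δhep Sting1-/- liver 1). edgeR called 0 of the 40, beside 0.299% of all tested genes, a total of 45 genes of which 18 were themselves in the index, and DESeq2 called 0. Unadjusted, 8 of the 40 had a positive slope at p under 0.05, beside 5.5% of all tested genes. These were Polq, Fanci, Msh6, Mdc1, Fancd2, Lig3, Fanca and Rad54l. Msh6 and Lig3 were lower in Mcl1Δhep livers 2 and 3, of high small RNA share, than in liver 1. This share rose as the index fell in WT and Sting1-/- livers, but fell with the index in Mcl1Δhep Sting1-/- livers. With the share as a covariate, 0 of the 40 slopes were called. Its part in the slopes was not tested further. Polq had the steepest slope, 0.98 (standard error 0.25, adjusted p = 0.217), close to 1 unit for each unit of the index, and Fanci followed with 0.84 (standard error 0.26, adjusted p = 0.323). For Fancd2 the slope was 0.68 (standard error 0.27), for Fanca 0.71 (standard error 0.30) and for Rad54l 0.58 (standard error 0.25). Other genes that rose with Mcl1 deletion had shallow slopes within genotypes, with 0.03 for Rad54b (standard error 0.21), 0.05 for Palb2 (standard error 0.19) and 0.16 for H2ax (standard error 0.17). Between these and Rad54l lay Chek1 with 0.41 (standard error 0.38) and Bard1 with 0.34 (standard error 0.34). Exo1 had 0.31 (standard error 0.35), Rad51ap1 0.26 (standard error 0.32), Chek2 0.24 (standard error 0.14) and Brca1 0.17 (standard error 0.24). The 24 S-phase replication genes had a median slope of 0.19 on this index, with 0 called and 1 passing unadjusted. A shallow slope thus does not set a gene apart from proliferation. Among genes that did not rise, Xrcc6 had 0.01 (standard error 0.10), Xrcc3 -0.02 (standard error 0.16), Nbn -0.02 (standard error 0.10) and Dna2 -0.08 (standard error 0.11), whereas Msh6 had 0.27 (standard error 0.10) and Mdc1 0.31 (standard error 0.12).

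With the index held equal, the averaged Mcl1 difference was called for 0 of the 40 genes by edgeR (0% of all tested genes) and by DESeq2. The median was -0.20, beside -0.03 over all tested genes, and 4 of the 40 passed unadjusted, beside 10.5% of all tested genes. Rad54b remained positive at 1.47 (standard error 0.63), and Lig3, Msh6 and Parp1 were negative at -0.84, -0.79 and -0.59. Lig3, Msh6 and Parp1 were also lower in Mcl1Δhep livers 2 and 3, of high small RNA share, than in liver 1. Standard errors ran from 0.25 to 2.02, the latter for Rad51b, which had 0.63 without the index. No Mcl1-deleted liver had an index as low as any other liver, so this comparison reaches beyond the livers measured.

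As a second description, deviations from the genotype means were correlated with those of the index over the 12 livers, with an exact permutation within genotypes (every arrangement, two-sided). Pearson's r was positive for 36 of the 40 genes with a median of 0.44, beside 0.04 over all tested genes, and 4 had a permutation p under 0.05, all positive (Polq, Fanca, Lig3 and Chek2), beside 5.0% of all tested genes. None passed after adjustment over all tested genes, where the lowest adjusted p was 0.319. Polq had r = 0.84 (permutation p = 0.0116) and Spearman's rho = 0.86 (permutation p = 0.0116), with an adjusted p of 0.45 for r. Without the 2 livers of most extreme index, Mcl1Δhep Sting1-/- liver 1 and Mcl1Δhep liver 1, r was 0.71 for Polq, 0.76 for Fanci and 0.92 for Mdc1. For the other 3 genes with a permutation p under 0.05, it went from 0.67 to 0.44 (Lig3), from 0.57 to 0.44 (Fanca) and from 0.62 to 0.63 (Chek2). The sign of r changed for Fancm (0.42 to -0.34), Lig4 (0.21 to -0.26), Atm (0.22 to -0.04) and Dna2 (-0.30 to 0.33). Without these livers, 34 of the 40 genes were positive with a median of 0.46. Xrcc6 had r = 0.04 and rho = 0.06 with permutation p-values of 0.969 and 0.892.

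**Figure D5:**
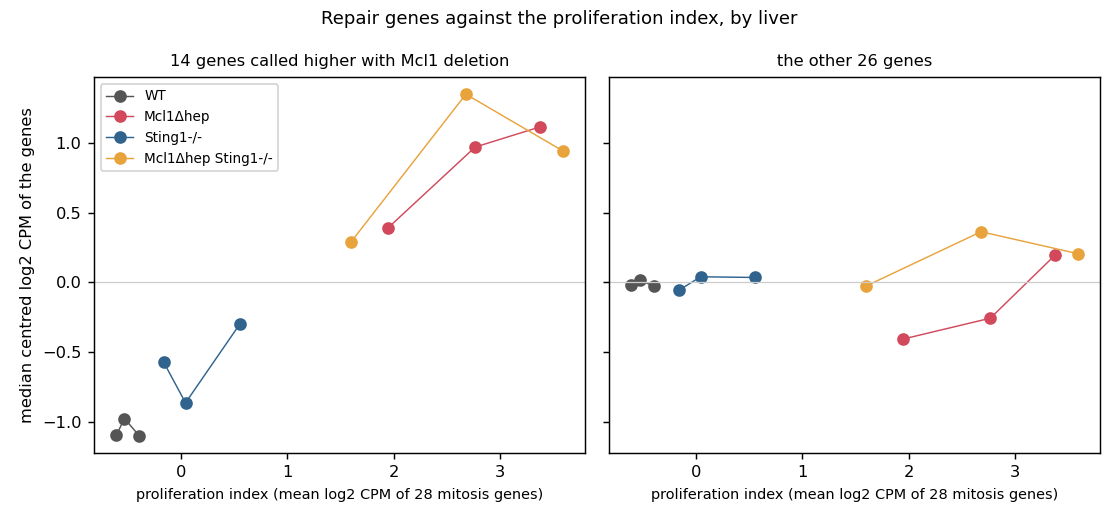
Median centred log2 CPM (y axis) of the 14 genes called higher in the averaged Mcl1 difference (left) and of the other 26 (right) against the proliferation index (x axis), 1 point per liver, with lines joining livers of a genotype. The step between genotypes on the left follows from how the 14 genes were chosen. Within Mcl1Δhep livers the left medians run from 0.39 to 1.11 and the right ones from -0.41 to 0.20, both in the order of the index. Mcl1Δhep livers 2 and 3, of lower index than liver 1, are those of high small RNA share. Within the other genotypes that order did not hold on either side. As the index fell, the left medians were -1.099, -0.977 and -1.096 in WT livers. In Sting1-/- livers they were -0.302, -0.864 and -0.571. The Mcl1Δhep Sting1-/- liver of index 3.59 had a left median of 0.94 and a right one of 0.205. The liver of index 2.68 had 1.35 and 0.363.

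Promoter sequences are shown for 4 genes to set steep and flat slopes side by side, the 2 with the lowest p for a positive slope (Polq and Fanci) and the 2 with a slope nearest to 0 among those of at least 1 CPM (Xrcc6 and Xrcc3). The windows run from 250 bases before to 50 after the transcription start and are RefSeq sequences on GRCm38.p6, another build than the gene positions above. Capitals mark, on either strand, the E2F core words TTCCCGC or TTGGCGC or TTCGCGC or TTGCCGC, the words TTTGAA or TTCGAA of the cell cycle homology region, or the CCAAT box, and also the longer E2F words given further on. E2F factors and the complexes that bind the homology region regulate many S-phase and mitosis genes, and CCAAT boxes are common in promoters of cell cycle genes.
Polq, chr16:37011536-37011835, plus strand: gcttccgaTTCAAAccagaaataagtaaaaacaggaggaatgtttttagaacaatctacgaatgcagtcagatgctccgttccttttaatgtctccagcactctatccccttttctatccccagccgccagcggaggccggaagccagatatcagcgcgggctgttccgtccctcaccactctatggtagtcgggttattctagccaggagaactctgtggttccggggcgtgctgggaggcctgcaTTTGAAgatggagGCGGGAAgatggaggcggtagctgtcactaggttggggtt
Fanci, chr7:79392088-79392387, plus strand: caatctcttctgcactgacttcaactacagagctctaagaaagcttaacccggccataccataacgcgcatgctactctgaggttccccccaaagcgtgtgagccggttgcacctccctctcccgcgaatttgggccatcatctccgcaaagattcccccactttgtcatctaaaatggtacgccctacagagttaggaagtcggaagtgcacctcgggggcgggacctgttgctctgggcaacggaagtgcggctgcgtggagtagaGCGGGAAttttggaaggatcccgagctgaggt
Xrcc6, chr15:82016119-82016418, plus strand: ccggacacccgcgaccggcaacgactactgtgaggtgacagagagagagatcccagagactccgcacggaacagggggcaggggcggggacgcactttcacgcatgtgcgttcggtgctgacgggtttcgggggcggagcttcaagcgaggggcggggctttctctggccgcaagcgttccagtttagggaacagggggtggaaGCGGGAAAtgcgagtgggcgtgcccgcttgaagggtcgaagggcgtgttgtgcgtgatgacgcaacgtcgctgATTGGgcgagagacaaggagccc
Xrcc3, chr12:111813830-111814129, minus strand: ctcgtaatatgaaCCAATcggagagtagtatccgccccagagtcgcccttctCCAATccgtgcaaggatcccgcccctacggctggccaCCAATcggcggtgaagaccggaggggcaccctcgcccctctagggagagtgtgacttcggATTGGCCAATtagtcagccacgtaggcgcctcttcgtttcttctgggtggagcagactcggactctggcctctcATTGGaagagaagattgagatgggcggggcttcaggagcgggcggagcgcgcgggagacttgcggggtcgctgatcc
The Polq window held 1 E2F core and 2 homology region words, and the Fanci window 1 E2F core. The Xrcc6 window, of a gene with a flat slope, also held 1 E2F core and 1 CCAAT, and was the only one of the 4 with a longer E2F word, in which its core lies, and the Xrcc3 window held 6 CCAAT boxes and no E2F core. An E2F core was present in 9.57% of all 32851 promoter windows of the table, and in 10.9% of the 27025 genes that these windows cover. Windows were given for 32 of the 40 genes, and an E2F core was found in 7 of the 10 called in the averaged difference that had a window (Brca1, Rad51ap1, Bard1, Fanci, Polq, Chek1 and Chek2) and in 11 of the 22 others. With the longer words TTTCCCGC or TTTGGCGC or TTTCGCGC or TTTGCCGC, which contain the cores, the counts were 2 of 10 and 5 of 22, beside 2.26% of all windows and 2.6% of these genes. Homology region words were in 2 of 10 and 2 of 22, beside 19.2% of windows and 21.7% of genes. CCAAT was in 6 of 10 and 12 of 22, beside 37.4 and 41.1%. A match says nothing of binding.

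Other genes of the same pathways were taken from 5 lists with 71 tested genes. In the averaged difference, 16 of the 71 were called higher, beside 9.9% of all tested genes, and 1 lower, beside 6.83%. In Mcl1Δhep against WT, 11 were higher, beside 10.8%, and 2 lower, beside 9.43%. Of 20 further recombination genes, 8 were called higher. Those with the lowest p were Parpbp, an inhibitor of recombination (log2 difference 3.59, standard error 0.53), Rad18, a ubiquitin ligase of damage tolerance (1.17, standard error 0.19), and Hrob (2.86, standard error 0.55). Of 14 crosslink genes, 3 were called, Ube2t, the ubiquitin-conjugating enzyme of the FANCI and FANCD2 clamp (2.18, standard error 0.33), Faap20 (0.37, standard error 0.08) and Fancb (1.24, standard error 0.31). Of 15 checkpoint relay genes, 5 were called, among them Clspn, the adaptor that presents CHEK1 to ATR (2.18, standard error 0.38), Cdc25c and Cdc25b. Of 13 end joining and end protection genes, 0 were called in either direction by edgeR and 1 was called lower by DESeq2, and 2 passed unadjusted. Of 9 ubiquitin relay genes, 0 were higher and 1, Rnf169, was lower (-0.59, standard error 0.12).

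Of 19 genes that p53 induces after damage, 7 were called higher in the averaged difference, beside 9.9% of all tested genes, and 0 lower, beside 6.83%. Cdkn1a, the inhibitor of cyclin-dependent kinases, had a log2 difference of 3.24 (standard error 0.44, adjusted p = 0.000769), Phlda3 one of 1.86 (standard error 0.24, adjusted p = 0.000671) and Eda2r one of 1.61 (standard error 0.18, adjusted p = 0.000307). Beside the same share of 9.9%, all 28 mitosis genes of the index were called higher, with a median of 3.20. So were 20 of 24 S-phase replication genes, with a median of 1.04. The median over all 40 repair genes was 0.35 in the same difference.

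The spans of 17 of the 40 genes, introns included, overlap another tested gene, on the opposite strand in most, and the use of strand in counting is not given in the sources used here. Among the genes that rose, Fanci overlaps Polg (54.3 CPM on average), Fancd2 overlaps Emc3 (62.2), Rad54l overlaps Lrrc41 (36.4), Palb2 overlaps Dctn5 (18.6) and Fanca overlaps Zfp276 (11.8). Rad54b overlaps Fsbp on the same strand (0.743) and Gm11832 on the opposite strand (0.531). The share of their reads that belongs to these neighbours was not tested.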

How the data were processed

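Mouse liver samples gave 12 total RNA libraries, 1 per sample. The authors deposited raw counts per Ensembl gene without normalization, and their processing notes name STAR, featureCounts and GRCm39. The annotation and use of strand are not given in the sources used here, and the RNA kit named in the labels is not the one in the paper. The paper counts samples in plots of these RNA data as biological replicates, for WT, Mcl1Δhep and Mcl1Δhep Sting1-/- livers. That the 3 Sting1-/- livers are separate animals is not stated outright, and p-values measure the spread between these samples. Groups came from the genotype labels.

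CPM with TMM factors and tests were computed from the counts with edgeR 4.0.16 in R 4.3.3 (filterByExpr by genotype, prior count 2, quasi-likelihood test, Benjamini-Hochberg over 15070 genes, threshold 0.05). All 12 libraries entered, and standard errors are the log2 fold change over the root of F. DESeq2 1.42.0 was the alternative tool. TPM used exon lengths of GENCODE vM39 on GRCm39. The index slope, averaged difference and interaction came from the same fit with the terms named. Correlations were adjusted over all tested genes, not over the 40 as planned. The tests were tested on simulated data.

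The 40 genes, the lists, the motif words and the tests were chosen with earlier results of these data known. Values of every liver were given for the 10 called genes of lowest p in the averaged difference, the 4 of smallest difference with at least 1 CPM, and H2ax, Chek1, Brca1, Atm and Prkdc. Parp1, Atr and Rad51b were described after their values were seen.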

Additional observations from a re-analysis of the deposited data

How the results depend on the processing

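Counts of called genes among the 40 kept their direction under other scaling, filters, tools, covariates, a block by replicate and the omission of any 1 library, with these exceptions. For genes lower in Mcl1Δhep against WT, 2 as reported, there were 1 with no filter and 0 with a replicate block, Y-linked expression or the small RNA share as a covariate, or only the 6 libraries of both genotypes. The small RNA share as a covariate gave 6 genes higher in place of 12, a median of 0.47 in Mcl1Δhep against WT and 0.28 in Sting1-/- against WT. In Mcl1Δhep Sting1-/- against Sting1-/- livers, 0 genes as reported became 9 with DESeq2 and 1 with RLE size factors or no filter, and DESeq2 gave 3 in Mcl1Δhep Sting1-/- against Mcl1Δhep. An S-phase index in place of the mitosis index moved the median slope to 0.48. The cause of these moves was not tested.

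Leaving out 1 library gave 8 to 12 genes higher and 0 to 9 lower in Mcl1Δhep against WT, 12 to 17 higher and 0 to 2 lower in the averaged difference, 0 to 5 higher in Mcl1Δhep Sting1-/- against Sting1-/-, 0 to 10 higher in Mcl1Δhep Sting1-/- against Mcl1Δhep (median 0.088 to 0.428) and 0 to 7 in the interaction. The upper ends for 9, 2, 10 and 7 came without Mcl1Δhep liver 1. The median at equal index ran from -0.46 without Mcl1Δhep Sting1-/- liver 1 to 0.15 without liver 3.

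Over all tested genes the replicate numbers did not pair the livers, although the index fell in their order within every genotype. Same-numbered livers deviated together in 3 of 18 pairs (r from -0.541 to 0.251), and 4 of 12 correlated best with their own number. The replicate block gave 11 genes higher in Mcl1Δhep against WT and 14 in the averaged difference, where Xrcc2 took the place of Brca1. The call of Polq in Mcl1Δhep against WT ended with this block, with either covariate and with only the 6 libraries of both genotypes. Low counts limit Rad51ap1, Exo1, Fanca and Polq, whose lowest counts in a library were 2, 4, 2 and 7 reads. They also limit Bard1, Chek1 and Rad54l, with 6, 5 and 5 reads.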
